A study of Rattus norvegicus with 2 samples.

Results

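Transcripts of lysosomal and secretory granule enzymes, lysosomal membrane proteins and the vacuolar proton pump were followed in a rat line of basophilic leukemia, RBL-2H3, which serves as a model of mast cells and basophils. The genes were taken from the table of all genes as 37 listed names plus every name starting with Atp6v, and 51 of the 14913 distinct names of the table qualified. Of the 37 listed names 34 were present, and Arsb, Ctsl and Ctss were not analysed here. A further 17 names started with Atp6v. The data were read counts from poly(A)-selected RNA-seq of 1 library of cells incubated with IgE and 1 library of untreated cells, both labelled wild type, with 26268330 and 20917968 counted reads. The labels give no IgE dose or duration, do not mention antigen, and name 1 cell line only, so each group was a single library of that line and no comparison has a replicate check. The question of the comparison was which transcripts differ between the cells incubated with IgE and the untreated cells.

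Mast cell and basophil granules are secretory lysosomes, which acidify with the vacuolar proton pump, store lysosomal hydrolases beside the cell's proteases and amines, and fuse with the plasma membrane when the IgE receptor is crosslinked. Release of beta-hexosaminidase, of which Hexa encodes the alpha subunit, is the usual readout of this process in RBL-2H3 cells, and CD63 reaches the cell surface with it. Most soluble hydrolases are sorted to the lysosome by a mannose phosphate tag. In human cells many lysosomal genes carry an E-box element in their promoters that is bound by MITF family transcription factors, of which TFEB is the best known and MITF itself is a mast cell regulator.

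Promoters were read from a RefSeq table of the rat build GRCr8, which held 300-base windows, from 250 bases before to 50 bases after the start of the gene, for 39 of the 51 genes by symbol. The 6 letters CACGTG, the core of that E-box, were searched on both strands, where they read the same. They stood in 10 of the 39 windows (25.6%), against 6.42% of all 33469 windows in the table and 9.49% of the 9613 windows whose gene had 20 or more reads in these libraries. The 10 genes were Atp6v0d1, Atp6v0e1, Cd63, Ctsd, Gaa, Glb1, Idua, Lamp1, Mcoln1 and Sgsh. The longer form TCACGTGA, which contains the core and also reads the same on both strands, stood in 5 of the 39 windows (12.8%), against 0.777% of all windows and 1.71% of those of genes with 20 or more reads. The still longer 10-letter palindrome of the CLEAR element stood in none of the 39 and in 0.233% of all windows. The median GC content was 59.7% in the 39 windows, 60.3% in the windows of genes with 20 or more reads and 51.7% in all windows. A match is a description of the letters in the window and does not show a bound site.

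The 5 windows with TCACGTGA are printed 5′ to 3′ on the strand of the gene because they hold the element in its longest form among these genes, and capitals mark each CACGTG. They lie in GRCr8 at chr16:83075014-83075313 on the minus strand (Lamp1), chr1:206968772-206969071 on the minus strand (Ctsd), chr12:6358008-6358307 on the plus strand (Mcoln1), chr19:50357199-50357498 on the minus strand (Atp6v0d1) and chr10:17007107-17007406 on the minus strand (Atp6v0e1).
Lamp1: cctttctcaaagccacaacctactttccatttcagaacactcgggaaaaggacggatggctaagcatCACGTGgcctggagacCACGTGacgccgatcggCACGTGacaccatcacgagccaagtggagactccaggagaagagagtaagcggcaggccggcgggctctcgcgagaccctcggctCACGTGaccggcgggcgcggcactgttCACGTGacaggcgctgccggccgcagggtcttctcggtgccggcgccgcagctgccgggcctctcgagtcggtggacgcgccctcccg
Ctsd: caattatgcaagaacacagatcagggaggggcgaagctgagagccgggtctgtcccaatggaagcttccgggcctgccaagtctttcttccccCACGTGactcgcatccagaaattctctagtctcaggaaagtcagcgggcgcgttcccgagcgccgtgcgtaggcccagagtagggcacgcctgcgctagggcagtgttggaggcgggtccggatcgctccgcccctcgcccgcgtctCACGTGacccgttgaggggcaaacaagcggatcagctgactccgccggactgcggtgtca
Mcoln1: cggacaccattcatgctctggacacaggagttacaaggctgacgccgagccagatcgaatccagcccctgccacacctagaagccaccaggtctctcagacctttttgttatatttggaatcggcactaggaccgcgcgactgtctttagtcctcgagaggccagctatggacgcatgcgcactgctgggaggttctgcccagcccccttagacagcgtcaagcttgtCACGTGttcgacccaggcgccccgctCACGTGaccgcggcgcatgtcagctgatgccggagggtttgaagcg
Atp6v0d1: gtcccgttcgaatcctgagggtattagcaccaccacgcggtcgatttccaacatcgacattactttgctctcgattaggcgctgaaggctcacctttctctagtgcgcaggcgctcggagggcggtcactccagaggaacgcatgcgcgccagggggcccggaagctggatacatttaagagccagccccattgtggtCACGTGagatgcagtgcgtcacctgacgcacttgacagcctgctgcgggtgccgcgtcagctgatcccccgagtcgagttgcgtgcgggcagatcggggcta
Atp6v0e1: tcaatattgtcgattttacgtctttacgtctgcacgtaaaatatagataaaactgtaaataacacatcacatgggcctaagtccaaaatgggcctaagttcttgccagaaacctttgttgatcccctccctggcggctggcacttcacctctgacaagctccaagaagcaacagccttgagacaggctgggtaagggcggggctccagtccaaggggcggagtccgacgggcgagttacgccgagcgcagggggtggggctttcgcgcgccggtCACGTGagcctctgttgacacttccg
The Lamp1 window held 5 copies of the core, beginning 183, 167, 150, 65 and 38 bases before the start. The Ctsd window held 2, at 157 and 10 bases before it, and the Mcoln1 window 2, at 22 bases before and as base 5 after it. The single copies of Atp6v0d1 and Atp6v0e1 began 52 bases before the start and at base 25 after it.

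As a group these genes were at nearly the same level in both libraries. Together they took 0.517% of the reads of the IgE library and 0.506% of the untreated library, with summed levels of 5188 and 5045 CPM (read counts brought to a common library size, here with TMM scaling). Of the 51 genes 47 had 20 or more reads over both libraries, the minimum for which a ratio is given. None of the 47 was 2-fold higher or 2-fold lower with IgE, where 2.63% of the 12102 genes above that minimum differed 2-fold or more in either direction. Most of those were weakly counted, and among genes with 1000 or more reads, as 40 of the 47 had, the share was 0.0288%, so the absence of 2-fold differences is not particular to these genes. The lowest of the 47 in reads was Atp6v1g2 with 67, and the highest of the 4 below the minimum was Atp6v1c2 with 16.

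The log2 fold of IgE over untreated had a median of 0.06 over the 47 genes and ranged from -0.87 (Atp6v1g2) to 0.36 (Atp6v1fnb). Over all genes with 20 or more reads the median was 0.00. At a smaller size, a log2 fold of 0.32 or more in either direction, 3 of the 47 stood apart (6.38%), namely Atp6v1fnb higher and Atp6v1g2 and Neu1 lower, against 18.1% of all genes over the minimum. None of the 40 with 1000 or more reads reached that smaller size, where 4.01% of the 6955 genes of that depth were. In that depth class the 5th and 95th percentiles of the log2 fold over all genes were -0.23 and 0.27, and 1 of the 40, Naglu at -0.23, lay beyond them.

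**Figure D1:**
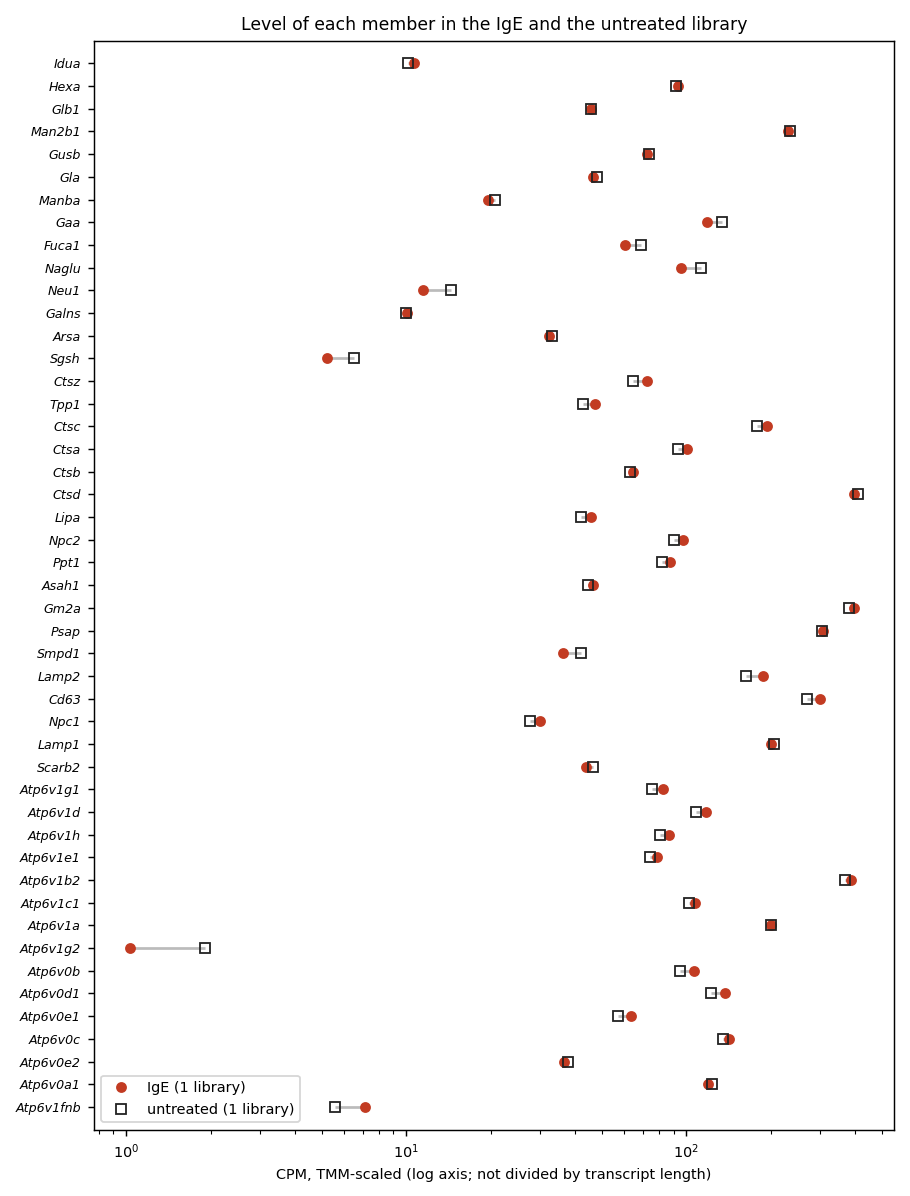
Level of each gene with 20 or more reads in the IgE library (filled circles) and the untreated library (open squares), as TMM-scaled CPM on a log axis, ordered by role and then by fold. The 2 symbols of a gene touch or nearly touch for most genes, and Atp6v1g2, at 1.03 CPM with IgE and 1.91 CPM untreated, has the widest gap; levels are not divided by transcript length and do not rank the genes.

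Counting error alone was smaller than many of these small differences. The exact 95% counting interval of the read ratio excluded 0 on the log2 scale for 23 of the 47 genes (48.9%), 16 of them above 0 and 7 below, where 38.5% of all genes over the minimum did. Among the 40 genes with 1000 or more reads it lay above 0 for 15 (37.5%) and below 0 for 5 (12.5%), against 25.2% and 24.4% of all genes of that depth. The direction leaned upward, with 27 of the 40 above 0 (67.5%), against 49.8% of all genes of that depth. These intervals compare the reads of 2 libraries and hold no variation between cultures, and whether the lean differs from chance was not tested.

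The glycosidases, which trim sugars from glycoproteins, glycolipids and glycosaminoglycans, were the group with the lowest median. Of 11 measured, 8 were below 0 and 3 above, with a median log2 fold of -0.05, a range of -0.33 to 0.07 and summed levels of 807 CPM with IgE and 854 CPM untreated. The counting interval lay below 0 for 4 of them (36.4%), Neu1, Naglu, Fuca1 and Gaa, and above 0 for 0. Over all genes with 1000 or more reads it lay below 0 for 24.4% and above 0 for 25.2%. Neu1, Manba and Idua had fewer reads than that. Glb1 was at 0.00 and its sign depended on the scaling.

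Neu1, the lysosomal sialidase, had 301 reads with IgE and 303 untreated, which after scaling was 11.5 and 14.4 CPM (log2 -0.33, counting interval -0.56 to -0.09). Naglu, which removes N-acetylglucosamine from heparan sulfate, stood at 96.1 CPM with IgE and 112.8 CPM untreated (-0.23, -0.31 to -0.15). Fuca1, the alpha-fucosidase, stood at 60.2 and 68.9 CPM (-0.20, -0.30 to -0.09) in the IgE and untreated library. Gaa, the acid alpha-glucosidase that degrades glycogen, was at 119 CPM with IgE and 134 CPM untreated (-0.17, -0.25 to -0.10). All 4 were lower in the IgE library, by less than 0.32 on the log2 scale except for Neu1.

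The remaining glycosidases lay close to level. Hexa, the beta-hexosaminidase subunit, was at 93.8 CPM with IgE and 91.7 CPM untreated (log2 0.03, -0.05 to 0.12). Man2b1, an alpha-mannosidase and the glycosidase with the most reads, was at 231 and 234 CPM (-0.02, -0.07 to 0.04) in the same order. The alpha-L-iduronidase gene Idua was the highest of the group on 279 reads with IgE and 213 untreated (0.07, -0.19 to 0.33). Gusb (beta-glucuronidase), Gla (alpha-galactosidase A), Manba (beta-mannosidase) and Glb1 (beta-galactosidase) lay between -0.08 and 0.00, each with an interval that included 0.

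Of the 4 sulfatases 3 were measured, and the counting interval of each included 0. Sgsh, which removes sulfate from the amino groups of heparan sulfate, had 136 reads in the IgE library and 136 in the untreated library, or 5.19 and 6.48 CPM (log2 -0.32, -0.67 to 0.03). Arsa, which acts on sulfatide, stood at 32.2 CPM with IgE and 33.1 CPM untreated (-0.04, -0.18 to 0.11). Galns, which acts on keratan and chondroitin sulfate, stood at 10.1 CPM with IgE and 9.96 CPM untreated (0.02, -0.25 to 0.29).

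Of the 7 protease names present, 6 were measured, with 5 above 0 and 1 below, a median log2 fold of 0.12, and summed levels of 877 CPM with IgE and 852 CPM untreated. The counting interval lay above 0 for 4 of them, Ctsz, Tpp1, Ctsc and Ctsa, and below 0 for Ctsd, against 25.2% and 24.4% of all genes with 1000 or more reads. The difference between proteases and glycosidases was not tested.

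Ctsz, a carboxypeptidase, was the highest protease at 72.1 CPM with IgE and 64.6 CPM untreated (log2 0.16, 0.06 to 0.26). Ctsc, the dipeptidyl peptidase that in mouse mast cells activates granule proteases such as chymases, stood at 194.5 CPM with IgE and 178.5 CPM untreated (0.12, 0.06 to 0.19). The aspartic protease gene Ctsd, which had the most reads of all 51 genes, was at 398 CPM with IgE and 410.2 CPM untreated (-0.04, -0.09 to -0.00). Ctsd was thus lower in the IgE library by a margin that only just exceeded counting error. Tpp1, a tripeptidyl peptidase, was at 0.15 (0.02 to 0.28), Ctsa at 0.11 (0.02 to 0.19) and Ctsb, a cysteine protease, at 0.04 (-0.07 to 0.14). Ctsh, an aminopeptidase, had 1 read with IgE and 6 untreated, so no ratio is given.

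Ctsa encodes the protective protein that holds the Neu1 sialidase and the Glb1 beta-galactosidase in a complex in the lysosome. The 3 transcripts had log2 folds of 0.11, -0.33 and 0.00 in the order Ctsa, Neu1 and Glb1. The interval of Neu1 lay below 0, that of Ctsa above it and that of Glb1 across it. This trio was picked out after its values were seen.

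Among 7 genes for lipid breakdown and its helper proteins, 6 were above 0 and 1 below, with a median log2 fold of 0.06. Of all genes with 1000 or more reads, 49.8% were above 0. The counting interval lay above 0 for 2 of the 7 and below 0 for 1, against 25.2% and 24.4% of all genes of that depth. Gm2a, the activator that presents ganglioside GM2 to hexosaminidase, stood at 398 CPM with IgE and 381 CPM untreated (0.06, 0.02 to 0.11). Psap, the precursor of the saposins, stood at 308 CPM with IgE and 304 CPM untreated (0.02, -0.03 to 0.07). The lysosomal acid lipase gene Lipa was the highest, at 45.7 CPM with IgE and 42.2 CPM untreated (0.12, -0.01 to 0.24). All 3 differed by at most 1.08-fold in these libraries.

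Smpd1, the acid sphingomyelinase that makes ceramide, was the exception of the lipid group at 36.1 CPM with IgE and 42.2 CPM untreated (log2 -0.22, -0.36 to -0.09). It lay just inside the 5th percentile of genes of its depth. Asah1, the acid ceramidase that consumes ceramide, was at 0.06 (-0.06 to 0.19). The cholesterol carrier gene Npc2 was at 0.11 (0.03 to 0.20) and the thioesterase gene Ppt1 at 0.09 (-0.00 to 0.18).

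Of 6 membrane protein genes 5 were measured, with 3 above 0 and 2 below and a median log2 fold of 0.11. The counting interval lay above 0 for 2 and below 0 for 0, against 25.2% and 24.4% of all genes with 1000 or more reads. Lamp2, which serves in autophagy as well as lining the lysosome, stood at 188.5 CPM with IgE and 164 CPM untreated (0.20, 0.14 to 0.26). Cd63, the tetraspanin used as a surface marker of degranulation, stood at 299 CPM with IgE and 269.8 CPM untreated (0.15, 0.10 to 0.20). Both were higher in the IgE library beyond counting error, and both lay inside the 95th percentile of genes of their depth.

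Lamp1, the close relative of Lamp2, stood at 199.8 CPM with IgE and 205 CPM untreated (log2 -0.04, -0.09 to 0.02). The counting intervals of Lamp1 and Lamp2 did not overlap. The cholesterol exporter gene Npc1 was at 0.11 (-0.04 to 0.27), and Scarb2, the carrier of glucocerebrosidase to the lysosome, was the lowest at 43.9 CPM with IgE and 46.6 CPM untreated (-0.08, -0.21 to 0.04).

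Mcoln1, the lysosomal calcium-permeable channel whose promoter is printed above, had 2 reads in the IgE library and 13 in the untreated library, fewer than the minimum for a ratio. It was the only one of the 51 genes that the authors' deposited table of differing genes holds, where it is marked as down. The authors' deposited table gives it a log2 fold change of -2.94, a p-value of 0.00572 and an adjusted p-value of 0.392. Those p-values come from 1 library per group and rest on no replicates.

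**Figure D2:**
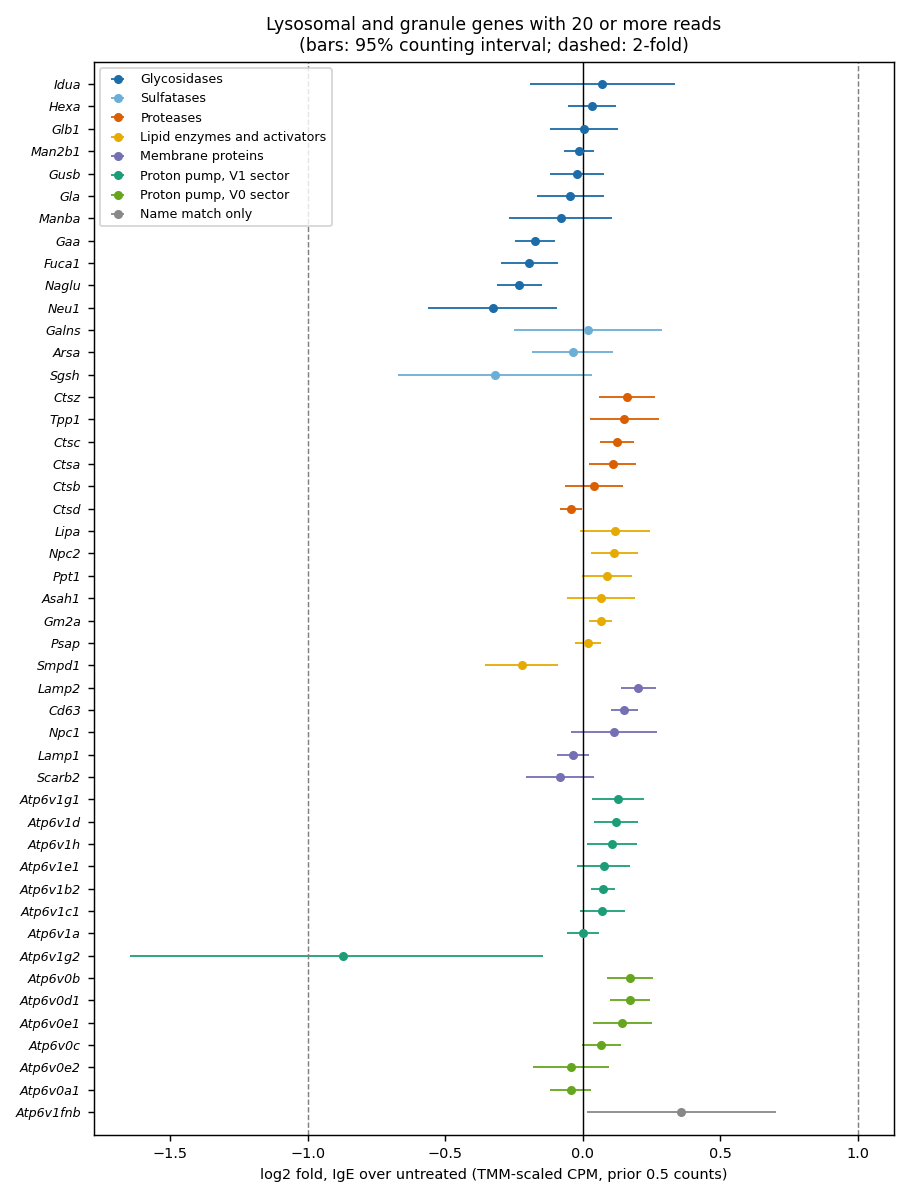
log2 fold of IgE over untreated for the 47 genes with 20 or more reads, coloured by role, with the exact 95% counting interval as a bar and a 2-fold difference dashed. No point reaches the dashed lines; 4 glycosidases, Smpd1, Ctsd and Atp6v1g2 sit left of 0 with bars that clear it, while Lamp2, Cd63, Gm2a, Npc2, Atp6v1fnb, 4 proteases and 7 proton pump genes sit right of 0 with bars that clear it.

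The proton pump is built of a cytosolic V1 sector, which splits ATP, and a membrane V0 sector, which carries the protons. Of its 16 genes present, 14 were measured, with 11 above 0 and 3 below, a median log2 fold of 0.07, and summed levels of 1669 CPM with IgE and 1584 CPM untreated. The counting interval lay above 0 for 7 and below 0 for 1, against 25.2% and 24.4% of all genes with 1000 or more reads. The 1 below 0 was Atp6v1g2 on 67 reads, and the other 13 had 1000 or more. Atp6v1fnb, which the name rule also took, is named for lying beside a pump gene in human and is not counted as a subunit here. It had 187 reads with IgE and 117 untreated (0.36, 0.02 to 0.70).

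In the V1 sector 8 of 9 genes were measured, with a median log2 fold of 0.07. The catalytic pair differed little between the libraries. Atp6v1a, the A subunit that binds ATP, was at 201 CPM in both the IgE and the untreated library (0.00, -0.06 to 0.06), and its sign depended on the scaling. Atp6v1b2, the B subunit, was at 389 CPM with IgE and 369.6 CPM untreated (0.07, 0.03 to 0.12).

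Among the stalk and regulatory subunits of V1, Atp6v1g1, Atp6v1d and Atp6v1h had intervals above 0, Atp6v1g2 had one below 0 on few reads, and those of Atp6v1e1 and Atp6v1c1 included 0. Atp6v1g1 was the highest of the sector at 82.5 CPM with IgE and 75.6 CPM untreated (0.13, 0.03 to 0.22). Atp6v1d, the central rotor shaft, was at 0.12 (0.04 to 0.20) and Atp6v1h, which regulates the holoenzyme, at 0.11 (0.01 to 0.20). Atp6v1e1 was at 0.08 and Atp6v1c1 at 0.07.

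In the V0 sector 6 of 7 genes were measured, with a median log2 fold of 0.10. Of these, 3 had an interval above 0, against 25.2% of all genes with 1000 or more reads. Atp6v0b, a proteolipid of the rotor ring, was the highest at 106.9 CPM with IgE and 94.9 CPM untreated (0.17, 0.09 to 0.26). Atp6v0d1, which joins the ring to the V1 shaft and has 1 E-box core in its promoter, was at 138 CPM with IgE and 122 CPM untreated (0.17, 0.10 to 0.25). Both were below the 95th percentile of genes of their depth. Atp6v0c, the main proteolipid, was at 0.07 (-0.00 to 0.14). Atp6v0a1, the large subunit of the proton path and the lowest of the sector, was at 119 CPM with IgE and 123 CPM untreated (-0.04, -0.12 to 0.03).

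Several subunits have isoform genes, and 4 pairs under Atp6v names had both isoforms in the table, while the a subunit had Atp6v0a1 and Tcirg1, which is named differently. For the G subunit, Atp6v1g1 had 2161 reads with IgE and 1587 untreated, and Atp6v1g2, known as the neuronal form, 27 and 40 reads (log2 -0.87, -1.65 to -0.15). For the C subunit, Atp6v1c1 had 2810 reads with IgE and 2146 untreated, against 9 and 7 reads for Atp6v1c2. For the V0 d subunit, Atp6v0d1 had 3605 reads with IgE and 2565 untreated, against 5 and 0 reads for Atp6v0d2, known in mouse from osteoclasts and macrophages.

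In each of these pairs the broadly expressed isoform carried nearly all reads in both libraries. The 0 reads of Atp6v0d2 in the untreated library allow a level of up to 0.143 CPM, taking 3 reads as the limit and counting error only. The 0.191 CPM with IgE rests on 5 reads, which carry counting error of their own. These values therefore do not show a difference, and no ratio is given at this depth. The e subunit pair was the exception, with 1655 reads with IgE and 1201 untreated for Atp6v0e1 (log2 0.14, 0.04 to 0.25). Atp6v0e2 had 961 and 794 reads in the same order (-0.04, -0.18 to 0.09). Both e isoforms were thus well counted in both libraries. Reads are not divided by transcript length, which was not used here, so these counts do not give the ratio of the transcripts.

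**Figure D3:**
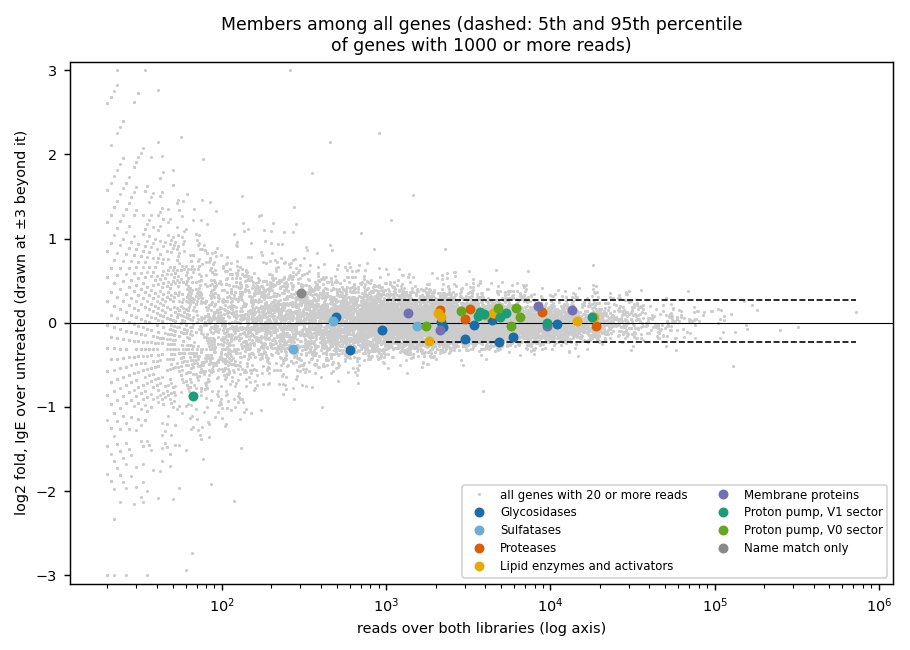
log2 fold of IgE over untreated against reads over both libraries (log axis) for all 12102 genes with 20 or more reads (grey) and for the 47 lysosomal and granule genes (coloured by role); dashed lines mark the 5th and 95th percentiles of genes with 1000 or more reads, -0.23 and 0.27. The coloured points with 1000 or more reads lie between the lines apart from Naglu on the lower one, and Atp6v1g2 is the coloured point with the fewest reads.

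The genes with and without the E-box core in their promoter overlapped in their folds. The 9 measured genes with CACGTG had a median log2 fold of 0.00 and ranged from -0.32 (Sgsh) to 0.17 (Atp6v0d1). The 27 measured genes whose window lacked it had a median of 0.06 and ranged from -0.87 to 0.20. Lamp1, with 5 copies, was at -0.04 and Ctsd, with 2, also at -0.04.

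Of 152 measured genes in 6 lists of related genes outside these names, 0 were at least 2-fold apart. Of these, 114 had 1000 or more reads, a depth at which 0.0288% of all genes were 2-fold apart. Of 14 pump partners and assembly factors 12 were measured, with a median log2 fold of 0.08 and a range from Ncoa7 (-0.23) to Rogdi (0.46). Tcirg1, the a subunit isoform that the Atp6v rule misses, had 1371 reads with IgE and 1007 untreated, beside 3127 and 2585 for Atp6v0a1, and was at 52.4 CPM with IgE and 48 CPM untreated (0.13, 0.01 to 0.24). It was added after its value was seen. Of 42 other lysosomal enzyme names 35 were measured, with a median of 0.04 and a range from Ctso (-0.40, 15 reads with IgE and 16 untreated) to Smpdl3a (0.43, 153 and 91 reads). Of 37 further lysosomal membrane names 31 were measured, with a median of -0.01, from Mcoln3 (-0.31, 30 and 30 reads) to Slc29a3 (0.22).

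Of 17 genes of the mannose phosphate tag, its receptors, adaptors and retromer, all 17 were measured, with a median log2 fold of -0.01, from Igf2r (-0.37, 24 reads with IgE and 25 untreated) to Vps26a (0.16). Of 36 granule biogenesis genes 35 were measured, with a median of 0.03, from Borcs6 (-0.35) to Bloc1s2 (0.36). Of the 35, 6 (17.1%) lay beyond 0.32 on the log2 scale, against 18.1% of all genes over the minimum. Rab38 (0.34), Snapin (0.35), Ap3s1 (0.35) and Bloc1s2 were higher with 1000 or more reads. At that depth the share of all genes was 4.01% in either direction, and the share of the granule biogenesis list at that depth was not calculated. Borcs6 and Hps4 (-0.33) were lower, on fewer than 1000 reads. In the other lists of related genes the share beyond 0.32 ran from 0% (lysosomal membrane) to 8.57% (other lysosomal enzymes). Of 28 regulators of the lysosome 22 were measured, with a median of -0.02, from Fnip2 (-0.13) to Lamtor1 (0.37), which anchors nutrient signalling to the lysosome. Mitf, an E-box factor named above after its value was seen, was at 378 CPM with IgE and 397 CPM untreated (-0.07, -0.11 to -0.03), and Tfeb was not analysed here.

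**Figure D4:**
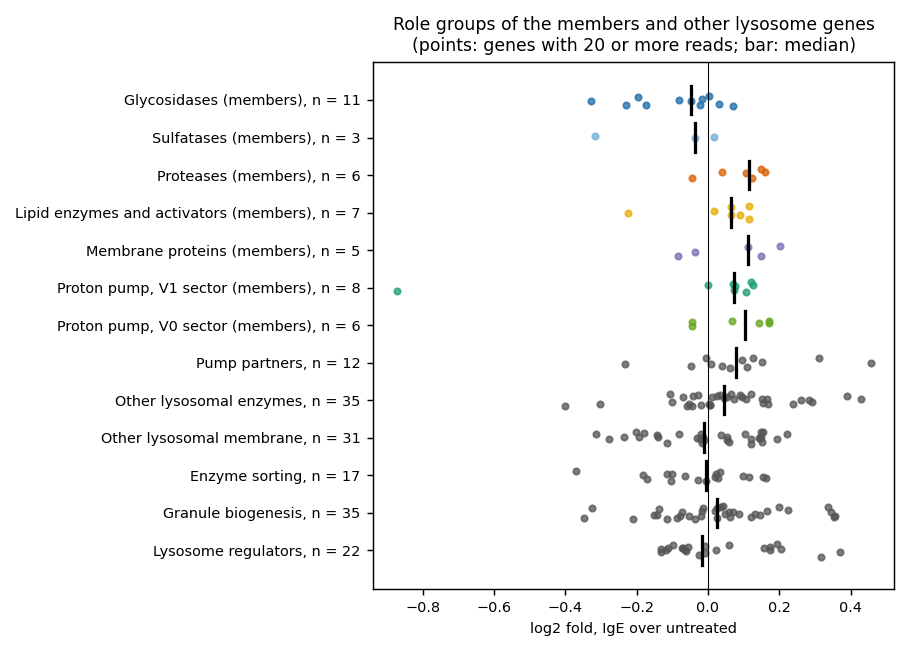
log2 fold of IgE over untreated for each gene with 20 or more reads, by role group of the lysosomal and granule genes (coloured) and by list of related genes (grey), with the median as a black bar. The glycosidase median lies at -0.05 and the protease median at 0.12, and every median drawn lies within 0.12 of 0; Atp6v1fnb and the marker lists are not drawn.

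Of 11 mast cell and basophil markers 8 were measured, from Fcer1g at 44.1 CPM with IgE and 37.9 CPM untreated to Gata2 at 2303 and 2479 CPM. The granule protease genes Mcpt8, Mcpt2 and Tpsab1 were not analysed here. The 8 markers had a median log2 fold of 0.13, above the 0.06 of the lysosomal and granule genes, and ranged from Gata2 (-0.11) to Fcer1a (0.34). Their intervals lay above 0 for 5 and below 0 for 2, against 25.2% and 24.4% of all genes with 1000 or more reads. The markers had a median of 41908.5 reads, against 3748 for the lysosomal and granule genes, and intervals narrow with depth. Of 14 markers of macrophages, another cell type rich in lysosomes, 3 were measured and the others were not analysed here. Those 3, Csf1r, Cd68 and Msr1, summed to 3.21 CPM with IgE and 5.48 CPM untreated, on few reads. All 3 were lower with IgE, where 5921 of all 12102 genes with 20 or more reads were. Msr1 had 7 reads with IgE and 26 untreated (log2 -2.13, -3.66 to -0.97), while Csf1r (37 and 46 reads) and Cd68 (40 and 43 reads) had intervals that included 0. The part of either marker list in the results was not tested. In bulk RNA a different number of cells of one kind and a different amount of RNA per cell cannot be told apart.

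The loci of 21 of 50 genes found in the RefSeq table overlap another gene there, such as Nfkbil1 for Atp6v1g2 and Card14 and Slc26a11 for Sgsh, and the strand setting of the counting is not given in the sources used here, so reads from overlapping genes cannot be told apart. RefSeq lists pseudogenes of Atp6v0c, Atp6v1a, Atp6v1e1 and Atp6v1g1, whose counts are uncertain for that reason.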

How the data were processed

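The authors deposited raw read counts per gene name for both libraries, and in the same table their own log2 fold change with a p-value and its adjusted form, per the file headers. Per the submitters' processing notes, the tools were fastp 0.23.0, HISAT2 2.1.0 and DESeq2 1.18.1 with build rn6, in roles not stated. The counter is not given in the sources used here. Of 16990 rows, 14913 were distinct and each was kept once. Log2 CPM came from edgeR 4.0.16 in R 4.3.3, using TMM scaling and a prior of 0.5 counts. Ratios were taken where a gene had 20 or more reads in all. With 1 library per group no test was made. Differences were described by a 2-fold rule and by exact Clopper-Pearson 95% intervals of the read ratio (scipy 1.17.1). These intervals cover counting error only and hold no variation between cultures. They are too narrow where reads are not separate molecules. The floor of 3 reads is 0.115 CPM with IgE and 0.143 CPM untreated. The rule for named genes took the 4 highest and 4 lowest folds, the extremes of each role group and related list, the 10 members with most reads and the isoform pairs; others, such as Fuca1, Gaa, Hexa and Arsa, were given after their values were seen. Members and lists were chosen with earlier results of these data known. The calculation was tested on simulated data that held counting error only, apart from 200 genes given a known fold. Such data cannot show how the intervals fare with variation between cultures or with reads that are not separate molecules. Alternatives were other scalings (library totals, DESeq2 1.42.0 size factors), priors, minimums, fold rules and kept repeats.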

Additional observations from a re-analysis of the deposited data

How the results depend on the processing

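No gene of the 51 above the read minimum reached 2-fold in the main result, nor with library totals, DESeq2 size factors, a prior of 5 counts, a minimum of 100 reads or repeated rows kept. The count was 3 with no minimum, where genes of few reads enter by construction, 1 with a 1.5-fold rule and 3 at a log2 fold of 0.32. The promoter count of 10 for CACGTG was 5 with TCACGTGA and 0 with the 10-letter CLEAR palindrome, which are stricter by construction. All 188 folds of single genes under scalings, the prior and kept repeats stayed inside their counting intervals. Of these folds 0 changed sign with an interval on 1 side of 0. For scalings and kept repeats this was nearly fixed in advance, because they move every gene by about the same small amount. A group median has no counting interval of its own. The median of these genes was 0.05 with library totals, 0.06 with DESeq2 size factors and 0.04 with no minimum. A read minimum cannot change a gene's fold. Library totals lowered the median of all genes by 0.01, which turned Atp6v1a (-0.01) and Glb1 (-0.00) below 0. The median over the 47 genes was 0.05 without Atp6v1fnb, an alternative chosen after seeing the data, as were the comparison with genes of 1000 or more reads and that with promoters of genes over the minimum. No paired analysis was possible because there is a single library on either side, which also left none to leave out. Depth limits the 4 genes under 20 reads.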
